A study of Mus musculus with 4 samples.

Results

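Trimethylation of histone H3 on lysine 4 (H3K4me3) was examined at the Ifit and Oas antiviral gene clusters of mouse macrophages. The peaks were chosen by position, as all those of 4 deposited peak lists that overlap 3 mm9 windows: the Ifit window on chromosome 19 from 34600000 to 34740000, the Oas window on chromosome 5 from 121170000 to 121365000, which stands for Oas1a, Oas2 and Oas3, and the Oasl window on chromosome 5 from 115340000 to 115400000, which stands for Oasl1 and Oasl2. They numbered 105 of 64314 peaks. Joined wherever they overlapped, they formed 35 of the 18786 regions of the genome, with 17 in the Ifit, 10 in the Oas and 8 in the Oasl window.

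The cells were primary macrophages grown from bone marrow for 7 days, from mice of mixed background, 94% C57BL/6 with 6% 129/Ola. By their labels they were Wbp7-/- or Wbp7+/-, and each genotype was sampled after 4 h with 10 ug/ml lipopolysaccharide (LPS) and untreated. Wbp7, also called Kmt2b, is a methyltransferase of lysine 4 of histone H3, so the Wbp7+/- cells carried 1 deleted copy themselves and no group had both copies. Each of the 4 groups held 1 library, so the differences below have no replicate behind them and were not tested. The labels do not say how many animals gave a library. The first line of the LPS-treated Wbp7+/- file names 24 h, against 4 h in its sample label and in the Wbp7-/- file, which leaves the hours of LPS in that library in doubt.

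LPS binds the receptor Tlr4, which leads through Irf3 to the secretion of interferon beta by macrophages. Interferon then acts on the same and neighbouring cells, where it induces genes whose promoters hold the interferon-stimulated response element (ISRE). The Ifit proteins bind viral RNA and hold back its translation, and Ifit1 recognises RNA caps that lack a host methylation. The Oas enzymes sense double-stranded RNA and make oligoadenylates that switch on RNase L, whereas Oasl1 is known in mice as an inhibitor of Irf7 translation. H3K4me3 marks active promoters and often spreads into the body of strongly induced genes.

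Promoter sequences of member genes are shown because the peaks lie in clusters whose genes respond to interferon. RefSeq promoters of GRCm38.p6 were matched by symbol for 7 of the 8 member genes, and those of 4 genes held the ISRE core, GAAA followed by any 2 bases and GAAA, on either strand. The core was present in 3.44% of the 32851 promoters of the table. The 250 bases before the start of these 4 genes are given from 5′ to 3′, with each core in capitals. They lie at chr19:34640639-34640888 (plus strand) for Ifit1, chr19:34583279-34583528 (plus) for Ifit3, chr5:120907526-120907775 (minus) for Oas1a and chr5:120777660-120777909 (minus) for Oas3. These positions are of another build than the peaks and cannot be set against them.
Ifit1: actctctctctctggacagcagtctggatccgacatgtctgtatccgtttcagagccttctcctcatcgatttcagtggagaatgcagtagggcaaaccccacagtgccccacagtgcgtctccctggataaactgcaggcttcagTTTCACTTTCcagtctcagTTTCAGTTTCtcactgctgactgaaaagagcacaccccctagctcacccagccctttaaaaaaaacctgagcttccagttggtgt
Ifit3: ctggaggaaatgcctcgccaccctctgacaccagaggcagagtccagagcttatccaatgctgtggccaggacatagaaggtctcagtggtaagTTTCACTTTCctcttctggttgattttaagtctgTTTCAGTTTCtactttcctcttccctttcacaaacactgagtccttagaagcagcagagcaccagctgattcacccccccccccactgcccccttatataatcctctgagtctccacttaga
Oas1a: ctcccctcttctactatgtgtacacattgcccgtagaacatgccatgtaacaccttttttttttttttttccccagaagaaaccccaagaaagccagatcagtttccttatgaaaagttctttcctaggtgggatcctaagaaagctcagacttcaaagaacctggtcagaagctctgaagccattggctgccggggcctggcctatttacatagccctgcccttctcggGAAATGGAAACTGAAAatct
Oas3: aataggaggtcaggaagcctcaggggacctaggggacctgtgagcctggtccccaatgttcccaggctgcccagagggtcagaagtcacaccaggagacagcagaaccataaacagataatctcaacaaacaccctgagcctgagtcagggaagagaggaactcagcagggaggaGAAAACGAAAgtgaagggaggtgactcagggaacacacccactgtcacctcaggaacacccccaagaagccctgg

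Ifit1 and Ifit3 had the same pair of matches, TTTCACTTTC and TTTCAGTTTC, which began at -104 and -85 from the start of Ifit1 and at -156 and -122 from that of Ifit3. In Oas1a both matches overlapped, beginning at -20 and -14, and in Oas3 a single match began at -75. Oas1g, a neighbour of Oas1a, held the same pair of matches, GAAATGGAAA and GAAACTGAAA, as Oas1a. Of all 14 Ifit and Oas family genes matched in these clusters, 9 had the core. Among the 9, Ifit1 and its neighbour Ifit1bl2 have overlapping promoters and share the same matches, read on opposite strands. No match in the Ifit2, Oasl1 and Oasl2 promoters says only that these letters are not in the windows searched. The other motifs searched were the interferon gamma element TTCNNNGAA, found in 8.3% of all promoters and in those of Ifit2 and Oas1a, and a kappaB form, GGG followed by any 2 bases and TTTCC, found in 1.63% of all and in none of the members. The TATA box letters TATAAA stood in 13.6% of all promoters and, on the reverse strand at -187 to -182, in that of Oasl2. Other forms of the box were not searched.

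Regions are numbered within each window by position, counted from 1, and no region was assigned to a gene, because no mm9 gene annotation was used. A gene table of GRCm38, used for names and neighbours only, lists Ifit2, Ifit3, Ifit1bl1, Ifit3b, Ifit1bl2 and Ifit1 in this order along chromosome 19, between Lipa and Slc16a12. On chromosome 5 it lists Oas2, Oas3, Oas1e, Oas1c, Oas1b, Oas1f, Oas1h, Oas1g, Oas1a and Oas1d between Dtx1 and Rph3a, and Oasl2 before Oasl1. Each peak has the score that the peak caller gave it, which grows with enrichment and with the unknown depth and is therefore read within its own list. Scores of 3100 and above are called the ceiling, since scores pile up there. The width of a region in a list is the number of bases covered by that list's peaks.

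All 3 clusters held more H3K4me3 peaks, over a longer covered length, after LPS in both genotypes. Peaks lay in 23 of the 35 regions in LPS-treated Wbp7-/- cells, against 13 in untreated Wbp7-/- cells. In Wbp7+/- cells they lay in all 35 regions after LPS, against 17 in untreated cells. Peaks covered 64.0 kb in LPS-treated and 34.8 kb in untreated Wbp7-/- cells, a ratio of 1.84, and 76.6 and 48.6 kb in LPS-treated and untreated Wbp7+/- cells, a ratio of 1.58. The covered length of the whole lists moved with LPS by ratios of 1.01 in each genotype, with 33.9 Mb after LPS and 33.5 Mb untreated for Wbp7-/-, and 34.9 Mb after LPS and 34.5 Mb untreated for Wbp7+/-. The mean peak width in the windows was 2372 and 2317 bp in LPS-treated and untreated Wbp7-/- cells and 2015 and 1942 bp in Wbp7+/- cells. The median peak width was lower with LPS, at 1301 against 2003 bp in Wbp7-/- and 960.5 against 1188 bp in Wbp7+/- cells.

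**Figure D1:**
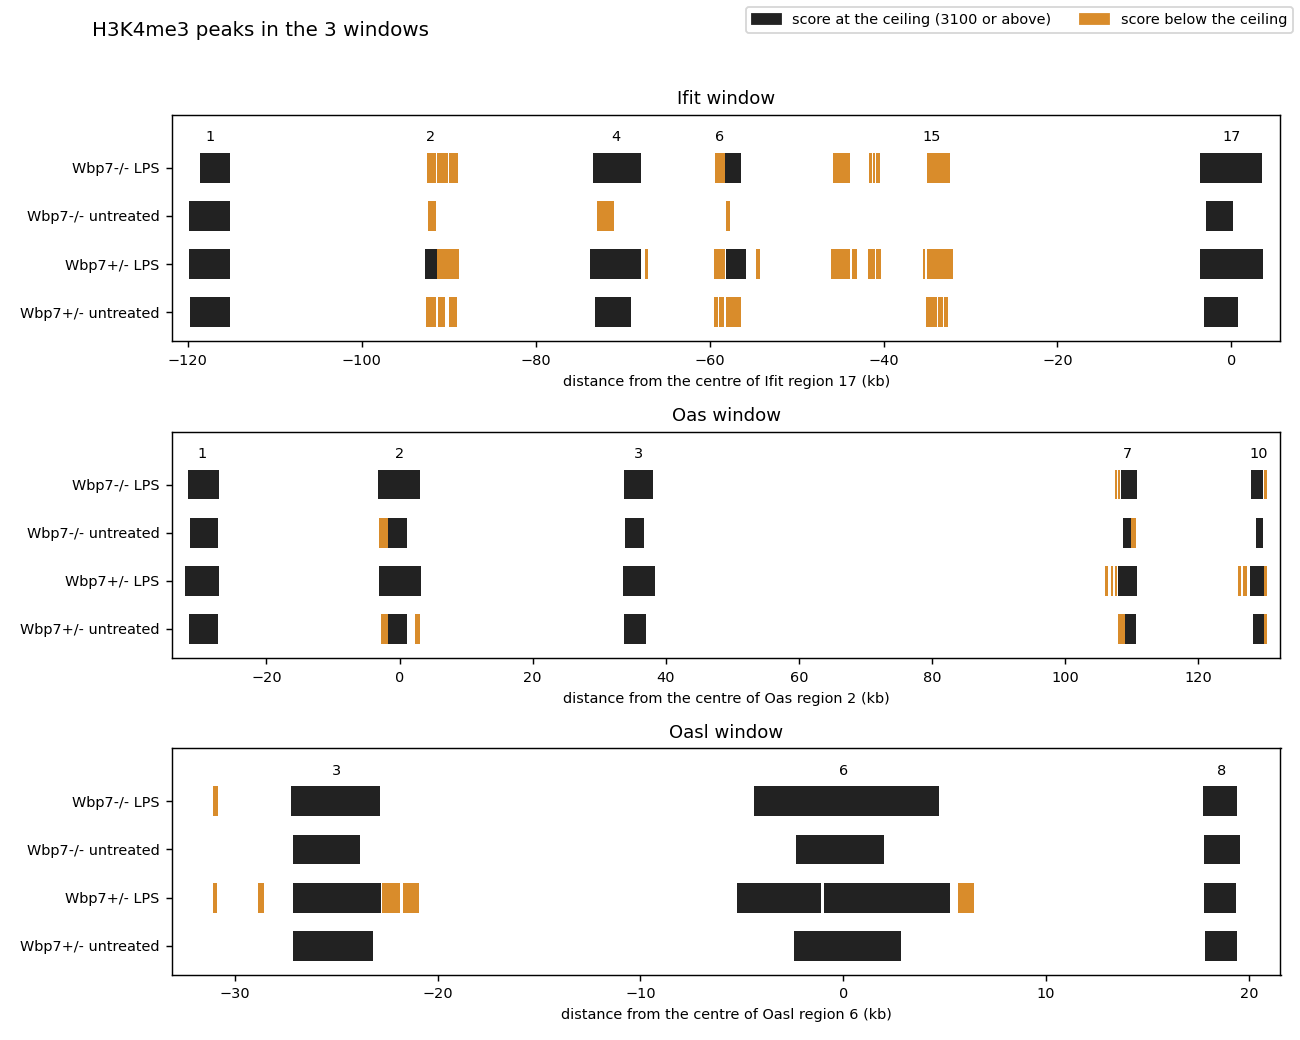
Peaks of the 4 lists (rows) in the 3 windows, with the distance from the centre of a region on the horizontal axis in kb, black bars for scores at the ceiling and orange bars for lower scores. Numbers name regions with a peak in at least 3 lists, where space allows; the Ifit window holds 5 regions with a peak in untreated Wbp7-/- cells and 17 in LPS-treated Wbp7+/- cells.

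The ratios of covered length differed between the clusters. In the Ifit window peaks covered 28.0 kb after LPS and 11.2 kb without it in Wbp7-/- cells, a ratio of 2.49, and 33.7 and 20.6 kb in Wbp7+/- cells, a ratio of 1.64. In the Oas window they covered 20.6 and 14.1 kb in Wbp7-/- cells (ratio 1.46) and 23.6 and 17.3 kb in Wbp7+/- cells (ratio 1.37). In the Oasl window they covered 15.5 and 9.42 kb in Wbp7-/- cells (ratio 1.64) and 19.3 and 10.7 kb in Wbp7+/- cells (ratio 1.80). The Ifit window thus held both the largest ratio, in Wbp7-/- cells, and the only regions that untreated Wbp7-/- cells lacked and untreated Wbp7+/- cells had.

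By presence, the 35 regions fell into 4 patterns. In all 4 lists a peak was found at 13 regions, 37.1% of the 35, against 65.4% of all regions of the genome. Another 12 were found in LPS-treated Wbp7+/- cells alone (34.3%, against 5.2% of all regions), 6 in both LPS lists alone (17.1%, against 1.75%) and 4 in every list but that of untreated Wbp7-/- cells (11.4%, against 2.41%). None of 23 regions with a peak in either list lost it with LPS in Wbp7-/- cells and none of 35 in Wbp7+/- cells. The shares of all such regions were 5.87% and 6.64%. Only 13 of the 23 and 17 of the 35 had an untreated peak to lose. A peak in Wbp7-/- cells without one in Wbp7+/- cells of the same treatment was found at none of 17 regions untreated and none of 35 after LPS. The shares of all regions were 5.54% and 6.24%. Shares that low would give few regions among so few, so this is not read as a trait of the windows.

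The widest H3K4me3 region of the clusters, Oasl region 6, was also the one that grew by the most bases. It spans 115368619 to 115379132 on chromosome 5. Peaks covered 9165 bp in LPS-treated and 4332 bp in untreated Wbp7-/- cells, and 10348 and 5252 bp in LPS-treated and untreated Wbp7+/- cells. The covered length with LPS was greater by 4833 bp in Wbp7-/- cells (2.12-fold) and by 5096 bp in Wbp7+/- cells (1.97-fold). Both treated values lay above both untreated values. By bases added it ranked 9 of 13092 regions shared by the Wbp7-/- lists and 6 of 15039 shared by the Wbp7+/- lists. It was at the ceiling in every list, and in LPS-treated Wbp7+/- cells it was split into 2 peaks. The Oasl genes themselves encode proteins related to the Oas enzymes, with ubiquitin-like ends.

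The other large regions of the Oasl window changed less. Oasl region 3, from 115346653 to 115351087, was covered over 4380 and 3301 bp in LPS-treated and untreated Wbp7-/- cells, and over 4337 and 3931 bp in Wbp7+/- cells, folds of 1.33 and 1.10. Oasl region 8, from 115391605 to 115393440, covered 1667 and 1787 bp in LPS-treated and untreated Wbp7-/- cells and 1614 and 1545 bp in Wbp7+/- cells. This region stayed within 1.16-fold in every comparison, and both it and Oasl region 3 were at the ceiling in all lists.

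Small peaks appeared around the large Oasl regions after LPS. Oasl region 1, from 115342772 to 115343025, had a peak of 254 bp with a score of 108.67 in LPS-treated Wbp7-/- cells and of 230 bp with 264.94 in LPS-treated Wbp7+/- cells, and none in untreated cells. Oasl regions 2, 4, 5 and 7 were found in LPS-treated Wbp7+/- cells alone, at 115345034 to 115345288, 115351107 to 115352028, 115352160 to 115352945 and 115379553 to 115380346. Their widths were 255, 922, 786 and 794 bp and their scores 52.69, 348.79, 113.19 and 90.26. Region 4 lay 19 bp past region 3, and region 7 lay 420 bp past region 6.

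In the Ifit cluster the largest change in bases was at Ifit region 17, from 34713736 to 34721045 on chromosome 19. Peaks covered 7167 bp in LPS-treated and 3145 bp in untreated Wbp7-/- cells, against 7241 and 3889 bp in LPS-treated and untreated Wbp7+/- cells. The folds with LPS were 2.28 in Wbp7-/- and 1.86 in Wbp7+/- cells. The width in Wbp7-/- cells minus that in Wbp7+/- cells was -74 bp after LPS and -744 bp untreated. All 4 values were at the ceiling, and the region ranked 21 of 13092 in Wbp7-/- and 37 of 15039 in Wbp7+/- cells by bases added.

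Ifit region 4, from 34643610 to 34649533, was narrow in untreated Wbp7-/- cells. It was covered over 5518 bp in LPS-treated and 2003 bp in untreated Wbp7-/- cells, and over 5924 and 4175 bp in LPS-treated and untreated Wbp7+/- cells. The fold with LPS was 2.75 in Wbp7-/- and 1.42 in Wbp7+/- cells. Its score was 1265.12 in untreated Wbp7-/- cells and at the ceiling in the other 3 lists. In untreated cells the Wbp7-/- width was 0.48 of the Wbp7+/- width, and after LPS it was 0.93.

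Ifit regions 6 and 7 lay 60 bp apart, from 34657874 to 34659146 and from 34659207 to 34661566. Region 6 had no peak in untreated Wbp7-/- cells, with 1140 bp and a score of 716.03 in LPS-treated Wbp7-/- cells. In Wbp7+/- cells it had 1254 bp and 1037 after LPS and 1062 bp and 322.21 untreated. Untreated Wbp7-/- cells were thus the only list without it. Region 7 was covered over 1754 and 491 bp in LPS-treated and untreated Wbp7-/- cells, with scores of 3135.44 and 85.04. In Wbp7+/- cells it was covered over 2342 and 1724 bp, with scores of 3100 and 1483.27. The fold of region 7 with LPS was 3.57 in Wbp7-/- cells, the largest of the 13 regions found in all 4 lists, and 1.36 in Wbp7+/- cells.

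Ifit regions 2 and 3 lay 15 bp apart, and of their values in the lists only that of region 2 in LPS-treated Wbp7+/- cells reached the ceiling. Region 2, from 34624658 to 34626039, covered 1100 and 920 bp in LPS-treated and untreated Wbp7-/- cells, with scores of 684.61 and 174.51. In Wbp7+/- cells it covered 1382 and 1188 bp, with scores of 3100 and 2418.58. Region 2 was found in every list. Region 3, from 34626055 to 34628597, covered 2246 bp in LPS-treated Wbp7-/- cells and had no peak in untreated ones, against 2521 and 1695 bp in LPS-treated and untreated Wbp7+/- cells. Its scores were 282.6 in LPS-treated Wbp7-/- cells, and 2517.94 and 94.01 in LPS-treated and untreated Wbp7+/- cells.

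Ifit regions 15 and 16, from 34682329 to 34683525 and from 34683590 to 34685434, also lacked a peak in untreated Wbp7-/- cells. Region 15 covered 1192 bp with a score of 665.6 in LPS-treated Wbp7-/- cells, and 1091 and 1182 bp with scores of 1345.83 and 629.78 in LPS-treated and untreated Wbp7+/- cells. Region 16 covered 1480 bp with a score of 1267.92 in LPS-treated Wbp7-/- cells, and 1833 and 1084 bp with scores of 2094.7 and 580.88 in LPS-treated and untreated Wbp7+/- cells. Both regions were wider in LPS-treated Wbp7-/- than in untreated Wbp7+/- cells.

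A stretch between these regions had H3K4me3 peaks after LPS alone. Ifit region 9, from 34671372 to 34673488, covered 1878 bp with a score of 454.7 in LPS-treated Wbp7-/- cells and 2117 bp with 1649.95 in LPS-treated Wbp7+/- cells. Ifit regions 11, 12 and 13, between 34675584 and 34677125, covered 433, 254 and 400 bp in LPS-treated Wbp7-/- cells, and 604, 246 and 571 bp in LPS-treated Wbp7+/- cells. Their scores were 360.54, 110.04 and 136.81 in Wbp7-/- and 616.09, 146.59 and 329.17 in Wbp7+/- cells. No list of untreated cells had a peak in these 4 regions. Ifit regions 5, 8, 10 and 14 were found in LPS-treated Wbp7+/- cells alone, with widths of 372, 564, 599 and 303 bp, with scores of 87.6, 214.9, 169.14 and 53.15. They began at 34649916, 34662675, 34673767 and 34681898.

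Ifit region 1, from 34597570 to 34602277, lies across the lower edge of the window. It was at the ceiling in every list and covered 3436 and 4672 bp in LPS-treated and untreated Wbp7-/- cells, and 4708 and 4566 bp in LPS-treated and untreated Wbp7+/- cells. The change with LPS was -1236 bp in Wbp7-/- cells, while the other 3 lists lay within 142 bp of each other.

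**Figure D2:**
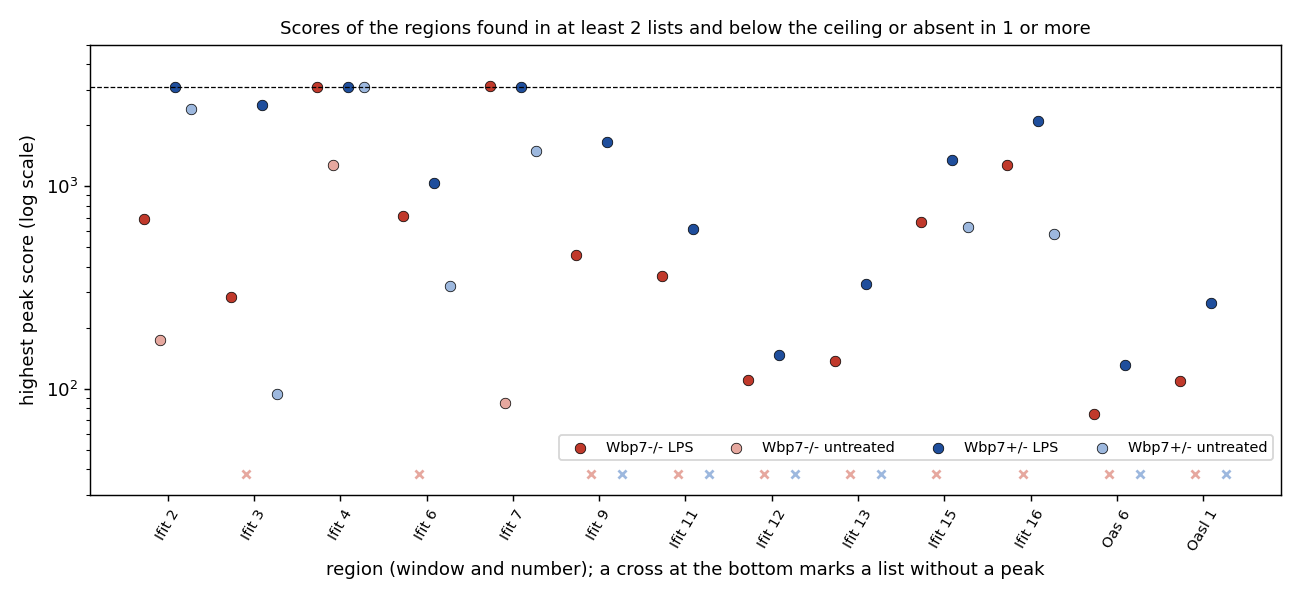
Highest peak score (log scale) of each region found in at least 2 lists and below the ceiling or absent in 1 or more of them. A score also grows with the unknown depth of its library, so scores are to be read within a list and not between lists. Circles give each list's score, crosses a list without a peak, and the dashed line the ceiling of 3100; untreated Wbp7-/- cells have a score at 3 of the 13 regions, 174.51, 1265.12 and 85.04.

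The Oas cluster kept its 5 large regions in all 4 lists, all at the ceiling. Oas region 2, from 121224396 to 121230923 on chromosome 5, covered 6316 and 4152 bp in LPS-treated and untreated Wbp7-/- cells, and 6338 and 4768 bp in LPS-treated and untreated Wbp7+/- cells, folds of 1.52 and 1.33. Oas region 3, from 121261235 to 121266011, covered 4292 and 2821 bp in Wbp7-/- and 4777 and 3197 bp in Wbp7+/- cells, folds of 1.52 and 1.49. In untreated Wbp7+/- cells 820 bp of Oas region 2 was a separate peak with a score of 56.71, where that list's lowest was 50.02. At both regions the treated widths of each genotype lay above the untreated widths of both. Both folds of Wbp7-/- cells lay just past the limit of 1.5 used for counts below, and that of Oas region 3 in Wbp7+/- cells just under it.

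All 5 large Oas regions were narrowest in untreated Wbp7-/- cells. Oas regions 7 and 10 stood out by the size of the difference, with 0.65 and 0.51 of the width in untreated Wbp7+/- cells. Oas region 7, from 121335583 to 121338484, covered 2796 and 1756 bp in LPS-treated and untreated Wbp7-/- cells, and 2794 and 2708 bp in LPS-treated and untreated Wbp7+/- cells. Oas region 10, from 121355411 to 121358000, covered 2213 and 1101 bp in LPS-treated and untreated Wbp7-/- cells, and 2476 and 2161 bp in LPS-treated and untreated Wbp7+/- cells. The folds with LPS were 1.59 and 2.01 in Wbp7-/- cells, against 1.03 and 1.15 in Wbp7+/- cells. At Oas region 10 the LPS-treated Wbp7-/- length includes a separate peak of 463 bp with a score of 67.63. The main peak there covered 1750 bp, against 1101 bp untreated. Both Wbp7+/- lists also had a small peak at that place, and untreated Wbp7-/- cells had none. Oas region 1, from 121195493 to 121200579, changed little, with 4668 and 4280 bp in LPS-treated and untreated Wbp7-/- cells and 5049 and 4435 bp in Wbp7+/- cells.

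Small Oas regions appeared beside regions 7 and 10 after LPS. Oas region 6, from 121335097 to 121335429, covered 283 bp with a score of 74.87 in LPS-treated Wbp7-/- cells and 325 bp with 131.51 in LPS-treated Wbp7+/- cells. Oas regions 4, 5, 8 and 9 were found in LPS-treated Wbp7+/- cells alone, with widths of 517, 286, 455 and 587 bp, with scores of 104.27, 100.78, 123.03 and 117.95. They began at 121333609, 121334609, 121353663 and 121354411. Region 6 lay 153 bp before region 7, and region 9 lay 413 bp before region 10. No peak of any list lay in the 67597 bp between Oas regions 3 and 4.

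**Figure D3:**
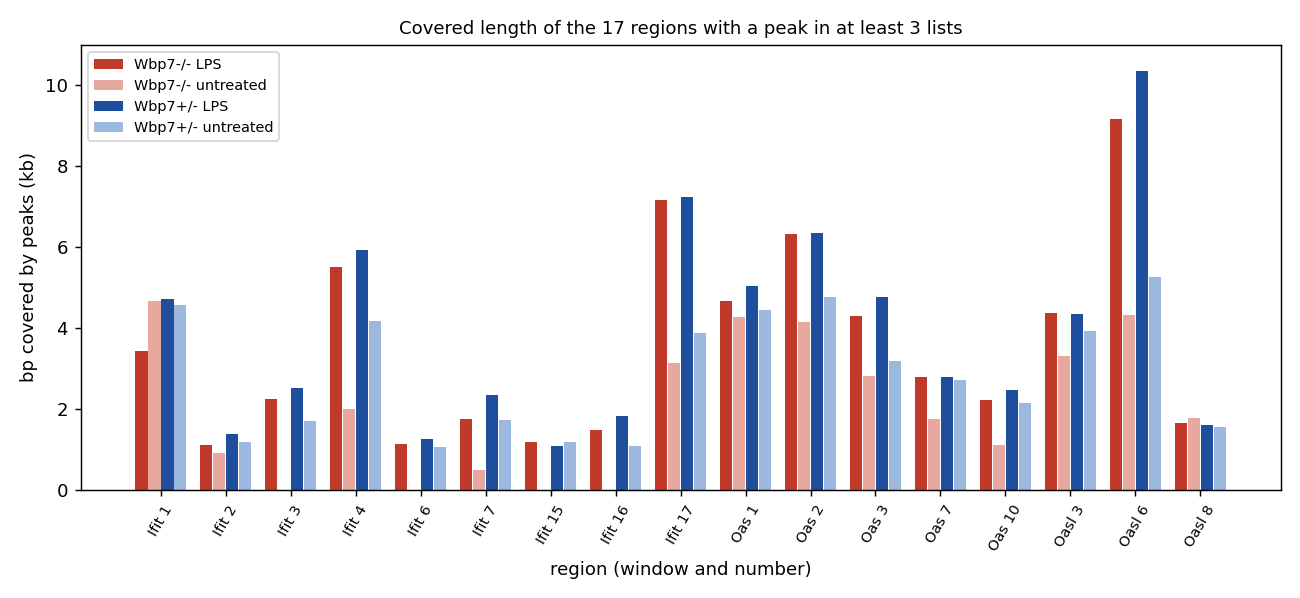
Covered length in kb of the 17 regions with a peak in at least 3 lists, with 1 bar per list. Oasl 6 and Ifit 17 reach 9165 and 7167 bp in LPS-treated Wbp7-/- cells, and the bars of untreated Wbp7-/- cells are missing at Ifit 3, 6, 15 and 16.

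Counts of calls were set beside the same counts over all regions of the genome. After LPS, a peak was new at 10 of the 23 regions of the windows with a peak in either Wbp7-/- list (43.5%), against 7.61% of all such regions. It was new at 18 of 35 in Wbp7+/- cells (51.4%), against 7.95% of all. By window the new regions numbered 8 Ifit, 1 Oas and 1 Oasl in Wbp7-/- cells, and 8 Ifit, 5 Oas and 5 Oasl in Wbp7+/- cells. Many lay close together, and whether neighbouring ones are separate was not tested. With peaks joined across gaps of up to 1 kb, the numbers were 4 of 17 regions with an LPS peak in Wbp7-/- and 5 of 19 in Wbp7+/- cells. With lists cut to equal length they were 10 in each genotype, of 23 and 26 regions with an LPS peak. The shares over all regions were not counted in these settings, so 7.61% and 7.95% do not apply to them.

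Among regions with a peak in both lists of a genotype, 8 of 13 were at least 1.5-fold wider with LPS in Wbp7-/- cells (61.5%), against 3.64% of all regions. The number was 3 of 17 in Wbp7+/- cells (17.6%), against 4.33% of all. None was 1.5-fold narrower in either genotype, against 2.39% of all regions in Wbp7-/- and 2.34% in Wbp7+/- cells. The 8 regions were Ifit 4, 7 and 17, Oas 2, 3, 7 and 10, and Oasl 6, and the 3 regions were Ifit 16 and 17 and Oasl 6. Ifit 17 and Oasl 6 passed in both genotypes, as did 1.62% of all regions with a peak in all 4 lists. Joining across gaps of up to 1 kb gave 5 such regions in Wbp7+/- cells, and a limit of 2-fold gave 5 in Wbp7-/- and 0 in Wbp7+/- cells. With scores under 100 dropped, the counts at 1.5-fold were 7 in Wbp7-/- and 4 in Wbp7+/- cells.

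Over the 13 regions of all 4 lists, the median width fold with LPS was 1.52 in Wbp7-/- cells (range 0.74 to 3.57) and 1.16 in Wbp7+/- cells (range 1.03 to 1.97). Over all 12294 such regions the medians were 0.98 in each genotype. In Wbp7-/- cells 11 of the 13 were wider with LPS and 2, Ifit region 1 and Oasl region 8, were narrower, against 40.5% wider over all 12294. All 13 were wider in Wbp7+/- cells, against 40.0% over all. Over the 10 of them at the ceiling in every list, the medians were 1.52 and 1.14, against 0.98 and 0.97 over 8423 regions.

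**Figure D4:**
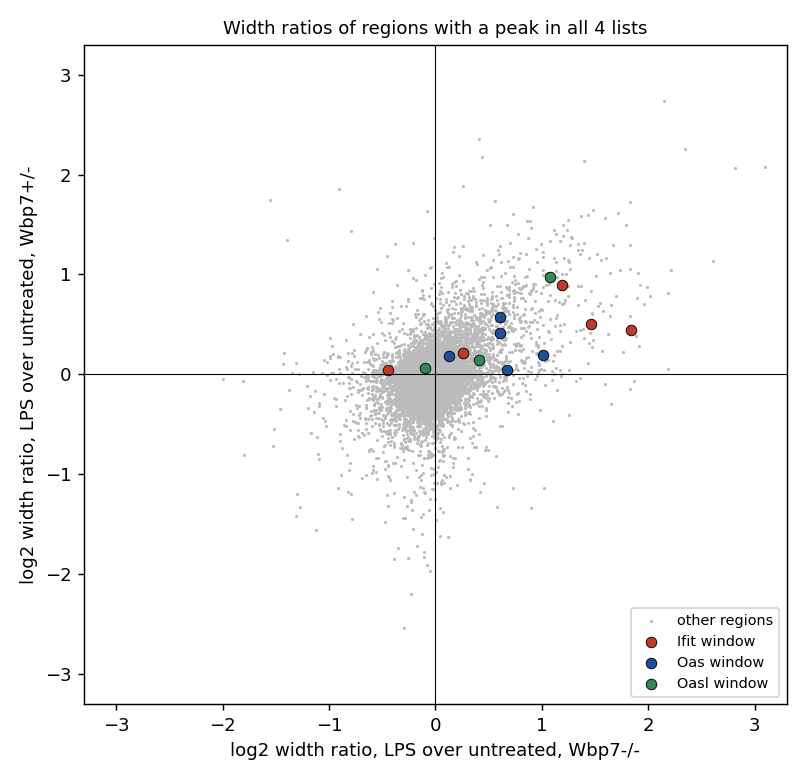
Log2 ratio of covered length, LPS over untreated, in Wbp7-/- cells (horizontal axis) and Wbp7+/- cells (vertical axis) for the 12294 regions with a peak in all 4 lists, with 1 point per region. The 13 coloured points of the windows all lie above 0 on the vertical axis, and 11 lie right of 0 on the horizontal axis.

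The second question was whether H3K4me3 at the clusters differed without Wbp7. In untreated cells the regions of the windows were narrower in Wbp7-/- than in Wbp7+/- cells, with a median width fold of 0.82 over the 13 regions, against 1.03 over all 12294. They were narrower at 11 of the 13, against 37.9% of the 12294. At least 1.5-fold narrower were 4 of 13 (30.8%), Ifit 4 and 7 and Oas 7 and 10, against 4.49% of all regions, and none was as much wider, against 4.17%. Their widths were 0.48, 0.28, 0.65 and 0.51 of those in untreated Wbp7+/- cells. This comparison shares the untreated Wbp7-/- list with the LPS comparison of that genotype, so a low value there enters both.

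A peak of untreated Wbp7+/- cells was missing in untreated Wbp7-/- cells at 4 of 17 regions (23.5%), a share near the 18.5% of all regions. All 4, Ifit 3, 6, 15 and 16, were below the ceiling in untreated Wbp7+/- cells. Of the 6 regions of the windows below the ceiling there, 66.7% were missing in untreated Wbp7-/- cells, against 46.8% of 6640 such regions in the genome. Each of the 4 had a peak after LPS in Wbp7-/- cells, against 15.8% of the 3178 regions of the genome that untreated Wbp7+/- cells had and untreated Wbp7-/- cells lacked. The 4 need not be separate. Ifit 3 and 6 lay 15 and 60 bp from Ifit 2 and 7, which had a peak in untreated Wbp7-/- cells. Ifit 15 and 16 lay 64 bp apart. With peaks joined within 1 kb, 1 region was missing, and these shares were not counted again.

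After LPS the median lay closer to 1. The median width fold of Wbp7-/- over Wbp7+/- cells was 0.92 over the 13 regions, against 1.04 over all 12294, and it ranged from 0.73 to 1.03. None of 23 regions was 1.5-fold narrower in LPS-treated Wbp7-/- than in LPS-treated Wbp7+/- cells, against 5.35% of all regions, and none was as much wider, against 4.07%. With scores under 100 dropped, 2 regions were narrower by that much. A peak of LPS-treated Wbp7+/- cells was missing in LPS-treated Wbp7-/- cells at 12 of 35 regions (34.3%), against 18.8% of all regions. All 12 were small, with a median width of 540.5 bp and scores from 52.69 to 348.79. With lists cut to equal length the number was 3, out of 26 regions that the Wbp7+/- LPS list still held. The share over all regions was not counted again in that setting, so 18.8% does not apply to it. The windows were thus set against the genome only with full lists, which held 17313 Wbp7+/- and 15086 Wbp7-/- peaks after LPS. Whether the higher share in the windows remains with lists of equal length was not tested. A difference between the genotypes in the effect of LPS could not be tested without replicates. The doubt whether the Wbp7+/- library had 4 or 24 h of LPS falls on this comparison too. With 24 h, genotype and hours of LPS could not be told apart.

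The 12 regions found in LPS-treated Wbp7+/- cells alone lay near larger ones. The nearest region with a peak in every list lay at a median of 1.09 kb, against 15.7 kb for all 977 such regions of the genome, and 83.3% lay within 5 kb, against 33.4%. Their median score was 108.7, against 73.5 for the 977. The depth of each library is unknown, and its part in these absences was not tested.

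By the rule set for likeness, the regions outside the windows whose LPS width ratios in the genotypes came closest to the medians of the 13 were taken from the 8423 regions at the ceiling in all lists. The closest lay on chromosome 7 from 148448502 to 148452911, with folds of 1.51 in Wbp7-/- and 1.17 in Wbp7+/- cells. The next were on chromosome 5 from 110604763 to 110609450, with 1.46 and 1.15, and on chromosome 17 from 71943825 to 71948846, with 1.58 and 1.12. Likeness here rests on 2 ratios from 4 libraries.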

How the data were processed

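H3K4me3 ChIP-seq was done in 4 libraries, 1 per group of genotype and treatment, grouped by sample title. Reads were aligned with Bowtie to mm9, per the submitters' processing notes, and peaks were called with MACS in each library, per the file headers, whose word input points to an input control. Tool versions, the calling threshold and read numbers are not given in the sources here, so depth and the precision it gives are unknown. The authors deposited a start, an end and a score per peak; the score is used as the peak caller gave it, and rises with depth. A missing peak means only that the caller's threshold was not passed.

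Peaks of the 4 lists (14599 to 17316 each) were joined where they overlapped by 1 bp or more, and the 18786 regions were also counted with bedtools 2.31.1. Widths are bases covered per list. The scripts used pandas 2.3.3, numpy 2.4.6 and matplotlib 3.10.9 under Python 3.11.15. Counting was tested on simulated data, a shifted copy of the untreated Wbp7+/- list: 200 of 200 removed and 200 of 200 widened peaks were recovered. The changed peaks all stood far from any other peak, so this check of the counting does not cover closely spaced peaks like those in the windows.

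All peaks of the windows are reported. The windows, genes and motifs were chosen with earlier results of these data known. No gene annotation of mm9 was used, so genes of the interferon pathway, macrophage markers and the Wbp7 locus were not analysed here. Alternatives were another score minimum, joining, list length, window edge, overlap, width measure and width fold. Motifs were searched in RefSeq promoters (250 bases before to 50 after a start).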

Additional observations from a re-analysis of the deposited data

Results flagged for a closer look

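At 3 regions the covered length moved in opposite directions with LPS in the genotypes, a difference that was not tested for want of replicates. At Ifit region 1 the change with LPS in Wbp7-/- cells minus that in Wbp7+/- cells was -1378 bp, where the width changed by -1236 bp without Wbp7 and by 142 bp in Wbp7+/- cells. At Ifit region 15 it was 1283 bp, because a peak of 1192 bp was new in Wbp7-/- cells while the region lost 91 bp in Wbp7+/- cells. At Oasl region 8 it was -189 bp, made up of -120 bp without Wbp7 and 69 bp in Wbp7+/- cells. Outlying samples could not be looked for in groups of 1 library.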

How the results depend on the processing

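Among 72 values from alternatives, 59 lay within 1.5 times the reported one and 13 outside; 4 of the 72, which kept to regions at the ceiling or to LPS scores of 100 or above, were chosen after seeing the data. With peaks joined within 1 kb, LPS-treated Wbp7+/- cells had a peak in 19 regions, new LPS regions numbered 4 in Wbp7-/- and 5 in Wbp7+/- cells, regions widened 1.5-fold in Wbp7+/- cells 5, regions missing in Wbp7-/- cells 2 after LPS and 1 untreated, and regions narrowed 1.5-fold in LPS-treated Wbp7-/- cells 1; this joins neighbours, so fewer regions are counted. With lists of equal length, new LPS regions in Wbp7+/- cells numbered 10 and regions missing in LPS-treated Wbp7-/- cells 3, since the Wbp7+/- lists lose their weakest peaks. With a limit of 2-fold, 5 regions were widened in Wbp7-/- and 0 in Wbp7+/- cells, and 2 were narrowed in untreated Wbp7-/- cells. Of the 5, Oas region 10 passed at 2.01 with its separate peak of 463 bp (score 67.63) counted. With scores under 100 dropped, 2 regions were narrowed 1.5-fold in LPS-treated Wbp7-/- cells, against 0 as reported. At Ifit region 3 a Wbp7-/- peak of 1301 bp (score 82.51) is dropped, which leaves 945 bp against 2521 bp in LPS-treated Wbp7+/- cells. At Ifit region 9 one of 684 bp (score 99.49) is dropped, which leaves 1194 bp against 2117 bp. Wider windows, spans in place of covered bases, and a 50% overlap moved no value past 1.5 times, and the bases covered per list stayed within that factor under every alternative run. No paired analysis was possible because each group has 1 library and the labels carry no replicate number. Unknown depth limits what a missing peak can show.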

Other observations

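The edges of the 9 regions widened 1.5-fold with LPS in either genotype moved in different ways. At Ifit region 17 the edge at the higher position moved out by 3311 bp without Wbp7 and 2882 bp in Wbp7+/- cells, and the lower edge by 711 and 470 bp. At Oas region 3 the higher edge moved out by 1369 bp without Wbp7 and 1368 bp in Wbp7+/- cells, and the lower edge by 102 and 212 bp. At Ifit region 4 the higher edge moved by 3018 bp without Wbp7 and 1198 bp in Wbp7+/- cells, and the lower edge by 497 and 551 bp. Oasl region 6 grew on both sides, by 2753 and 2411 bp at the higher edge and 2080 and 2851 bp at the lower edge in Wbp7-/- and Wbp7+/- cells. At Ifit region 7 the higher edge moved by 1247 bp without Wbp7 and 613 bp in Wbp7+/- cells, and the lower edge by 16 and 5 bp. Ifit region 16, which had no untreated Wbp7-/- peak, moved by 656 bp at the higher and 13 bp at the lower edge in Wbp7+/- cells. At Oas region 2 the higher edge moved by 1896 bp without Wbp7 and 135 bp in Wbp7+/- cells, and the lower edge by 217 and 273 bp. The 135 bp is counted from the end of a separate untreated Wbp7+/- peak of 820 bp with a score of 56.71. The untreated Wbp7+/- peak before it ended at 121228860, and the LPS peak at 121230923. The contrast with Wbp7-/- cells at this edge rests on that weak peak. Oas region 7 moved more at the lower edge in Wbp7-/- cells, by 798 bp against 244 bp at the higher edge, and by 10 and 11 bp at the lower and higher edges in Wbp7+/- cells. At Oas region 10 the lower edge moved by 651 bp without Wbp7 and 414 bp in Wbp7+/- cells. Its higher edge moved by 633 bp without Wbp7 and -92 bp (inwards) in Wbp7+/- cells. The 633 bp runs to the end of a separate LPS peak of 463 bp (score 67.63). The main Wbp7-/- peak ended at 121357365 with LPS and at 121357367 untreated, so it grew at the lower edge. Edges are those of the outermost peaks of a list in the region, and the strand of any gene there was not used.

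The member promoters differed in CpG content. The 300-base promoters held 1 CpG at Ifit3, 3 each at Oas1a, Oas3 and Oasl2, 4 at Ifit1, 8 at Oasl1, and 10 and 11 at the starts of Ifit2 in the table, against a median of 7 over 32851 promoters.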
